A study of Mus musculus with 4 samples.

Results

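The muscle actins, the contractile genes of smooth muscle and the SRF regulators that govern both were followed in ventricles of mouse embryos at embryonic day E12.5. Members were the rows of the deposited table whose identifiers map to 10 listed symbols: Actc1, Acta1, Acta2, Actg2, Tagln, Cnn1, Myh11, Myl9, Srf and Myocd. All 10 were found among 38293 rows. The list was selected on expression values of these same 4 libraries, with the comparison of their groups already known, so the differences between groups in these genes are descriptions and support nothing by themselves.

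The knockout group (cKO) had the genotype Hif1alphaflox/flox/Nkx2.5Cre/+, in which Cre recombinase is expressed from the Nkx2-5 locus of heart muscle precursors. The controls were Hif1alphaflox/flox/Nkx2.5+/+, so both groups carried the floxed Hif1a alleles and only the cKO group carried Cre. Each group had 2 embryos, numbered 2 and 3, from 1 litter on a C57BL/6 background, matched by somite count, with the atria and valve region removed before RNA was taken. No library came from an embryo with Cre and unfloxed Hif1a, so the effects of Cre, of its place in the Nkx2-5 locus and of Hif1a loss cannot be told apart.

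Actins are the subunits of thin filaments. Mammals have 4 muscle actins, cardiac (Actc1), skeletal (Acta1), vascular smooth muscle (Acta2) and enteric smooth muscle (Actg2), beside the cytoplasmic actins Actb and Actg1. The embryonic heart muscle transiently transcribes smooth muscle genes such as Acta2, Tagln and Cnn1 together with the cardiac form. Serum response factor (Srf) binds a promoter element called the CArG box, and its coactivator myocardin (Myocd), made in heart and smooth muscle, turns that binding into transcription of the muscle actins and their partners.

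The actin genes are close enough in sequence that short reads could be confused between them, so their coding ends are shown first. These are the last 75 bases of each coding sequence, stop codon included, which is the read length of the study. They are written 5′ to 3′ from GENCODE transcripts on GRCm38, all on the minus strand and each within the last coding exon, and capitals mark bases that differ from Actc1.
Actc1 (chr2:114047466-114047540): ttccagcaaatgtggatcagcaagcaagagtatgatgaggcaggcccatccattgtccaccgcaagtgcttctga
Acta1 (chr8:123892009-123892083): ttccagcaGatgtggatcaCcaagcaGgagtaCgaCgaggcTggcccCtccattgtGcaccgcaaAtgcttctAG
Acta2 (chr19:34241667-34241741): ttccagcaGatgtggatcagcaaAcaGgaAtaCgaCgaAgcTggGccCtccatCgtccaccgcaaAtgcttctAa
Actg2 (chr6:83512985-83513059): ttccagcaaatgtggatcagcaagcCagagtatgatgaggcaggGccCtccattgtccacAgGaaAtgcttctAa
Actb (chr5:142903798-142903872): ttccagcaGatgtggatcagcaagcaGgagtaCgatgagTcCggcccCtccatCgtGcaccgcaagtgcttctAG
Actg1 (chr11:120346390-120346464): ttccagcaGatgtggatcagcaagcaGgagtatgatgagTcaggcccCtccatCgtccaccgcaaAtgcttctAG
Acta1 differed from Actc1 at 11 of these 75 positions, Acta2 at 13 and Actg2 at 7. Over the whole coding sequence Actc1 was 86.2% identical to Acta1, 82.5% to Acta2 and 84.5% to Actg2. No window of 75 bases in the longest coding transcript of Actc1 or Actg2 matched a transcript of another gene with up to 2 mismatches. For Acta2 0.15% of windows did, and for Acta1 1.46%. For the cytoplasmic actins the share was larger, 29.7% for Actb and 56.1% for Actg1, with Lrrc58 and Gm12715 sharing the most windows with them, so the estimates for these 2 genes depend more on how reads were divided. The deposited values had the same order: the Actc1 count was whole in 4 of 4 libraries and that of Acta2 in 3, while those of Acta1, Actb and Actg1 were whole in none.

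SRF is known to act through CArG boxes near the start of these genes, so the promoters of members in the RefSeq table (GRCm38.p6) were searched from 250 bases before to 50 after the start, on both strands. Of the 10 members 6 had an entry, and Actg2, Tagln, Myh11 and Myocd did not. The stretches below run 5′ to 3′ on the gene's strand and stop before the first annotated exon. Capitals mark CArG boxes, including those with 1 other letter, that lie whole within the stretch. In Acta1 a further match with 1 other letter, which starts 205 bases before the start, is cut by the edge of the stretch and left in lower case. For Acta2 an annotated exon covers much of the stretch before the start, so only its 2 matches with their flanks are given.
Actc1 (chr2:114052888-114053075, minus strand): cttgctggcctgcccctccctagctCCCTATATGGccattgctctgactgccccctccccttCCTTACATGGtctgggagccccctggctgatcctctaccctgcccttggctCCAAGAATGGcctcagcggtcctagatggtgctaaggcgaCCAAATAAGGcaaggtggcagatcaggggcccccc
Acta1 (chr8:123894776-123894975, minus strand): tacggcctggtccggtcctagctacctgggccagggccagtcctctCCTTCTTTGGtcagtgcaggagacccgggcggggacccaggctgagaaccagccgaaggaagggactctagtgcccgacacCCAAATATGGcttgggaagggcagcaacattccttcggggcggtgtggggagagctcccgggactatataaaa
Acta2 (chr19:34255438-34255467, minus strand): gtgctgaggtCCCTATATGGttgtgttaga
Acta2 (chr19:34255388-34255417, minus strand): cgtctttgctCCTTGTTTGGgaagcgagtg
Myl9 (chr2:156775264-156775419, plus strand): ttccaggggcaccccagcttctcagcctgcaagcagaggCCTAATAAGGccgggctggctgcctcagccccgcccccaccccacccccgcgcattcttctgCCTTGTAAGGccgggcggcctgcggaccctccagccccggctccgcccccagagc
Srf (chr17:46556176-46556362, minus strand): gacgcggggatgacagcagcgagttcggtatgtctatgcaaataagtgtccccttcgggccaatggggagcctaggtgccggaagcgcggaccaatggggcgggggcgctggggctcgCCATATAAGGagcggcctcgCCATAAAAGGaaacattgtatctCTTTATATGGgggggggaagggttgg
A CArG box with every letter matched was present in 4 of the 6 promoters, those of Actc1, Acta1, Myl9 and Srf, the last with 2 of them. Of 32851 promoter windows of the same length in the table, 1.63% held one. With 1 other letter allowed the count was 5 of 6, Acta2 being added, against 21.1% of all windows. Acta2 had 2 such matches, the first bases of which lay 84 and 34 bases before the start, and Cnn1 had none in its window. The MCAT element (CATTCCT), bound by TEAD factors, was found in Acta1 and Acta2, 2 of 6, against 5.36% of all windows. The core of the hypoxia response element, to which HIF-1 binds, was searched as ACGTG or GCGTG and was present in Acta1, Cnn1 and Srf, 3 of 6, against 43.8% of all windows. These matches are letters in a window and do not show that a factor was bound.

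**Figure D1:**
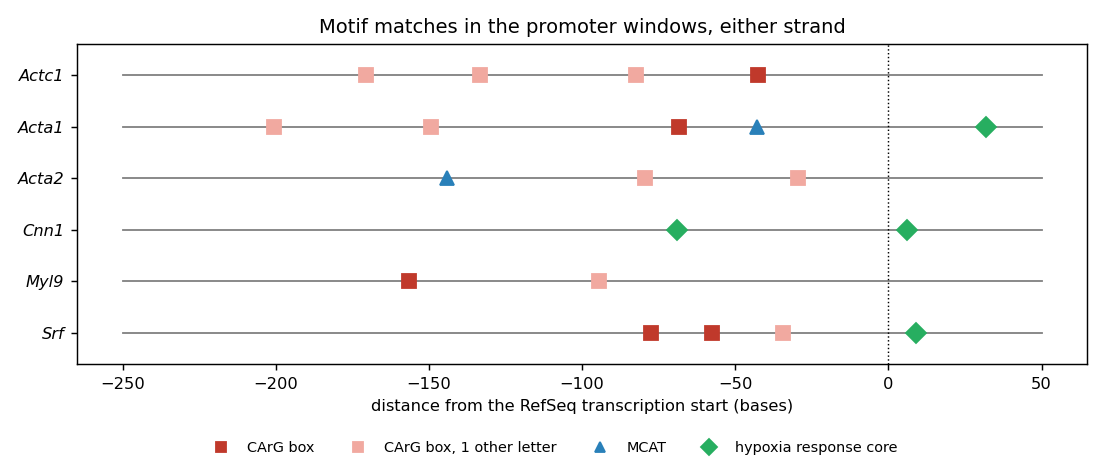
Motif matches in the promoter windows of the 6 members with a RefSeq entry. The horizontal axis is the distance from the transcription start in bases, each line is 1 gene, and the symbols mark CArG boxes (all letters, or with 1 other letter), MCAT elements and hypoxia response cores. Of the 6 genes, 4 have a CArG box with every letter matched, and Cnn1 has none.

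The libraries held between 8561687 and 19801300 expected counts, the deepest being cKO replicate 3, from the one male embryo (Y-linked Ddx3y at 101 CPM there and at most 0.110 CPM elsewhere). CPM, the unit of levels below, is a gene's count relative to the TMM-scaled total of its library. The labels name no batch, and p-values measure the spread between these embryos only. Hif1a stood at 716 and 663 CPM in cKO replicates 2 and 3 and at 530 and 552 CPM in the controls. The deposited gene-level value cannot show whether the floxed part was lost, so it checks nothing about the deletion. Nkx2-5, the locus that carries Cre, stood at 44.3 and 42.1 CPM in cKO and at 55.9 and 64.95 CPM in control (log2 fold change -0.49 ± 0.10, edgeR adjusted p = 0.153). Of 8 cardiomyocyte marker genes all were measured, summing to between 26150 and 28230 CPM in cKO and between 27520 and 29660 CPM in control.

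Cardiac actin dominated the muscle actins in all 4 libraries. Actc1 (ENSMUSG00000068614, chromosome 2, 114047282 to 114053548) stood at 7820 and 8000 CPM in cKO and at 8654 and 8517 CPM in control. It took between 0.775% and 0.859% of all counts of a library and ranked between 4th and 8th of all genes by count. Both cKO libraries lay below both controls, and the lower control was 6.46% above the higher cKO library. The log2 fold change of cKO over control was -0.12 ± 0.09 (standard error, SE).

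Skeletal actin showed the largest difference among the members. Acta1 (ENSMUSG00000031972, chromosome 8, 123891769 to 123894751) stood at 62.8 and 86.3 CPM in cKO and at 121 and 184 CPM in control. The groups did not overlap, but the controls differed from each other by more than the gap to the nearer cKO library. The group means were 74.6 ± 16.6 CPM and 153 ± 44.5 CPM (SD, n = 2 each), a log2 fold change of -1.03 ± 0.20 (SE). Leaving out control replicate 3 gave -0.69, and leaving out control replicate 2 gave -1.29. Without cKO replicate 2 the value was -0.82 and without cKO replicate 3 it was -1.28, so the size rested on single libraries of both groups.

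Vascular smooth muscle actin had a smaller but tighter difference. Acta2 (ENSMUSG00000035783, chromosome 19, 34241090 to 34255590) stood at 497 and 599 CPM in cKO and at 833 and 862 CPM in control. The means were 548 ± 72.4 CPM and 847 ± 20.5 CPM (SD, n = 2 each), which is 1.54-fold higher in control, and the lower control was 38.9% above the higher cKO library. The log2 fold change was -0.63 ± 0.11 (SE). In bulk ventricles, fewer cells that express the gene and less RNA of it per cell cannot be told apart, here or for any gene below.

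Enteric smooth muscle actin was close to undetected. Actg2 (ENSMUSG00000059430, chromosome 6) had 4 and 7 counts in cKO and 2 and 2 counts in control, with exact Poisson 95% intervals of 1.09 to 10.2 and 2.81 to 14.4 counts in cKO and of 0.242 to 7.22 counts in each control, covering counting error only. The intervals overlap, and a difference was not detectable at this depth.

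Among the smooth muscle contractile genes other than the actins, Tagln, the actin-binding protein transgelin, stood furthest from its control level. Tagln (chromosome 9, 45929619 to 45936058) had 118 and 122 CPM in cKO and 169 and 151 CPM in control, with no overlap. Its log2 fold change was -0.42 ± 0.09 (SE). Exons of Pcsk7 and of Gm48529, both on the other strand, overlap Tagln by up to 108 and 404 bases, and no source used here states that counting used strand. If it did not, reads of Tagln and of these genes could not be told apart where they overlap. The Tagln count was whole in 4 of 4 libraries, and Gm48529 had no row under that symbol. Pcsk7 had a log2 fold change of -0.07 ± 0.10 (SE).

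Cnn1, which encodes the actin-binding protein calponin, stood at 186 and 200 CPM in cKO and at 231 and 219 CPM in control. Its groups did not overlap, and its log2 fold change was -0.22 ± 0.08 (SE). Myl9, the regulatory light chain of smooth muscle myosin, had 592 and 669 CPM in cKO and 638 and 698 CPM in control. These ranges overlapped, with a log2 fold change of -0.08 ± 0.10 (SE), and without cKO replicate 2 the value was 0.003.

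Myh11, the smooth muscle myosin heavy chain and a defining marker of differentiated smooth muscle, had 4 and 9 counts in cKO and 3 and 4 counts in control. That is between 0.355 and 0.452 CPM, so Acta2, Tagln, Cnn1 and Myl9 were measured in ventricles in which Myh11 was close to absent in both groups.

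The regulators differed less than Acta1 or Acta2. Srf (chromosome 17, 46548329 to 46556175) stood at 100.2 and 112 CPM in cKO and at 105 and 129 CPM in control, and the groups overlapped. The log2 fold change of -0.14 ± 0.11 (SE) turned to 0.015 when control replicate 3 was left out. Myocd (chromosome 11, 65176561 to 65269989) stood at 96.7 and 107 CPM in cKO and at 123 and 128 CPM in control, with no overlap and a log2 fold change of -0.30 ± 0.09 (SE).

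**Figure D2:**
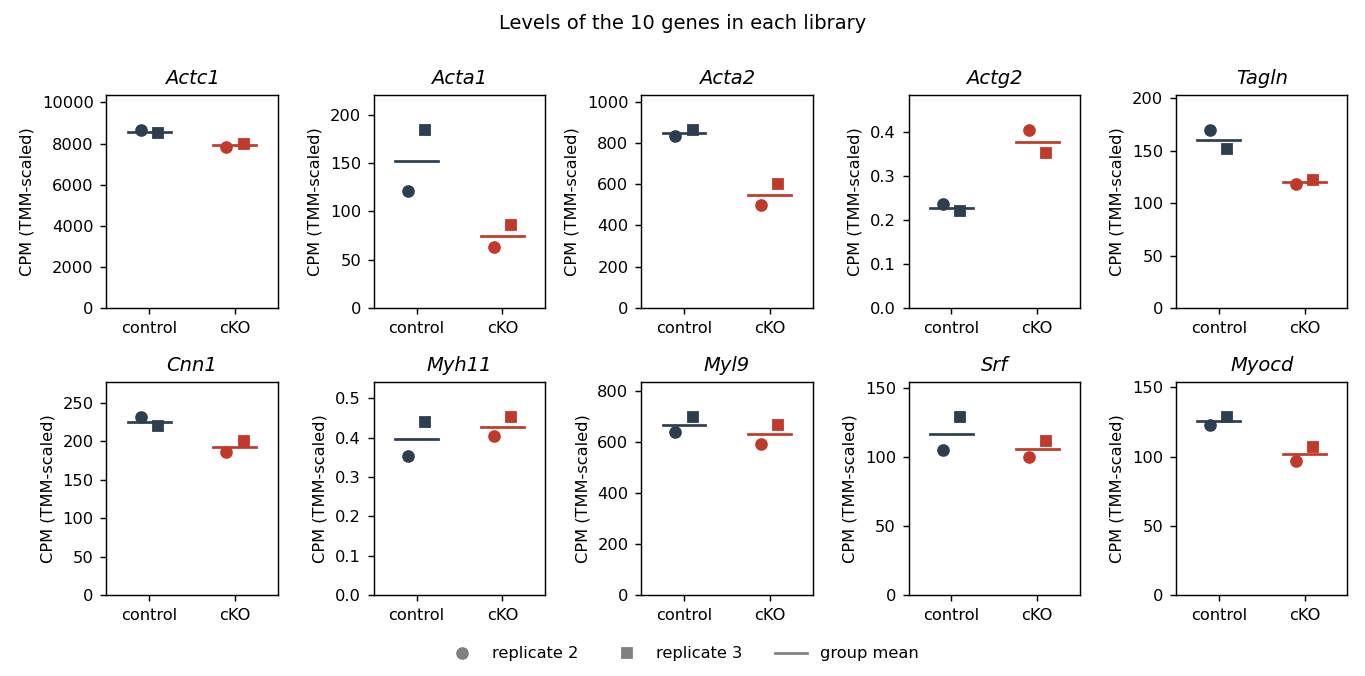
Level of each of the 10 genes by library, in CPM scaled by TMM on axes that start at 0. Circles are replicate 2, squares replicate 3, and lines the group means. For Acta1, Acta2, Tagln, Cnn1, Myocd and Actc1 both cKO libraries lie below both controls, while those of Myl9, Srf and Myh11 overlap. Actg2 and Myh11 rest on 2 to 9 counts per library.

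Of the 10 members 8 passed the filter on low counts, and Actg2 and Myh11 did not. None of the 8 passed edgeR's quasi-likelihood test at an adjusted p of 0.05 over all 13711 tested genes, of which 0.511% passed and 0.365% passed with a lower level in cKO. Acta2 came nearest, at an adjusted p of 0.0598, and Myl9 was the furthest, at 0.896, while 5 members had an unadjusted p under 0.05. Among all genes 18.8% had both cKO libraries below both controls, and of the 8 members 6 did. As the members were listed with this comparison known, nothing is read from these counts. All 8 log2 fold changes were negative, with a median of -0.26, where 50.1% of all tested genes were negative with a median of -0.0003. Against the control mean, cKO replicate 2 had a median over the 8 members of -0.33 and cKO replicate 3 one of -0.20, and the latter stood above the former for each of the 8.

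The calls depended on the test and on single libraries. With DESeq2, which called 0.700% of genes and 0.474% as lower in cKO, Acta2 passed (adjusted p = 9.89e-07, range over the settings tried 9.89e-07 to 0.287) and so did Tagln (0.043, range 0.043 to 0.438). With limma-voom, which called 0.532% of genes, Acta2 alone passed (adjusted p = 0.0394). Without cKO replicate 3, edgeR called 0.577% of all genes, among them Acta2 (-0.77 on the log2 scale, adjusted p = 0.0242) and Acta1 (-1.28, adjusted p = 0.0444), and without control replicate 2 it called 0.38% of all genes and of the members Acta1 alone (adjusted p = 0.0457, range over the settings tried 0.00173 to 0.444). Without cKO replicate 2 Acta2 had -0.50, in a fit that sets the male cKO embryo against female controls, so that sex and genotype cannot be told apart.

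**Figure D3:**
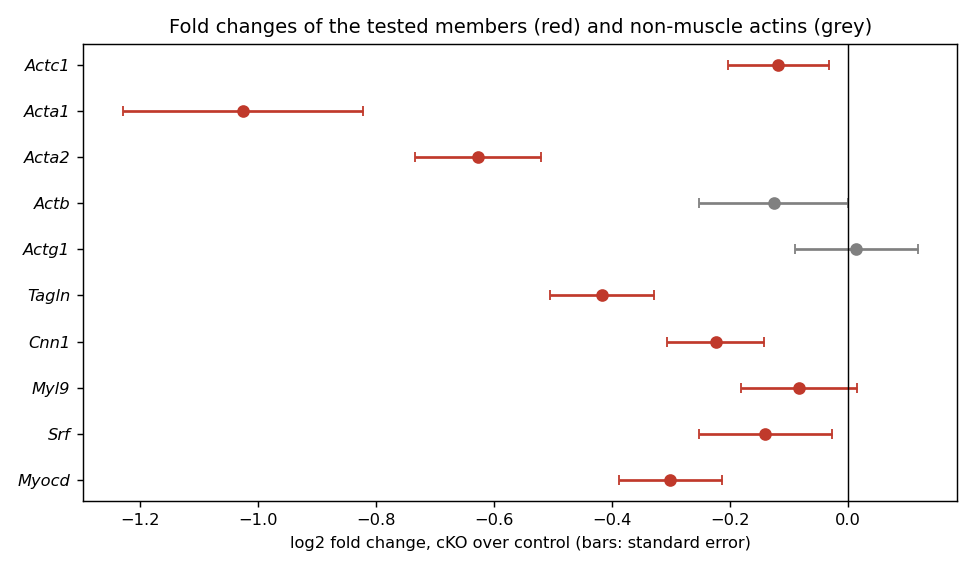
Log2 fold change of cKO over control for the 8 tested members (red) and the 2 cytoplasmic actins (grey), with bars of 1 standard error. Acta1 lies at -1.03 and Acta2 at -0.63, while Actg1 lies at 0.014.

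The make-up of the actin pool was then compared within each library, which does not depend on how libraries are scaled. Counts were divided by the length of the gene's longest coding transcript and expressed as a share of the sum over the 6 actins. Actc1 took 83.2% and 81.5% in cKO and 82.2% and 79.5% in control, so the groups overlapped. Acta2 took 3.83% and 4.42% in cKO and 5.72% and 5.82% in control, with means of 4.12% ± 0.417 and 5.77% ± 0.0730 (SD, n = 2 each). Acta1 took 0.681% and 0.896% in cKO and 1.17% and 1.75% in control, with means of 0.788% ± 0.152 and 1.46% ± 0.411 (SD, n = 2 each). For both genes the cKO shares lay below the control shares. Actg2 took at most 0.00476% in any library.

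The cytoplasmic actins did not share that pattern. Actb took 5.43% and 5.86% in cKO and 4.95% and 6.19% in control, and these ranges overlapped. Actg1 took 6.82% and 7.35% in cKO and 6.01% and 6.70% in control, slightly more in both cKO libraries. Their CPM overlapped between groups, with log2 fold changes of -0.13 ± 0.13 for Actb and 0.014 ± 0.10 for Actg1 (SE), and more of their reads can be shared with other genes than those of the muscle actins.

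Among the 4 muscle actins alone, Actc1 took 94.9% and 93.9% in cKO and 92.3% and 91.3% in control. Acta2 took 4.36% and 5.09% against 6.42% and 6.69%, and Acta1 0.776% and 1.03% against 1.31% and 2.01%. Within this smaller pool the Actc1 share was higher in both cKO libraries. Expressed against cardiac actin, there were 4.60 and 5.42 Acta2 transcripts per 100 of Actc1 in cKO and 6.96 and 7.32 in control. For Acta1 the numbers were 0.818 and 1.10 in cKO and 1.43 and 2.20 in control.

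Counting error was small beside these differences. As a plain share of actin counts, Acta2 made up 5.02% (Wilson 95% interval 4.89% to 5.16%) in cKO replicate 2 and 5.77% (5.67% to 5.87%) in cKO replicate 3. The controls stood at 7.48% (7.32% to 7.65%) and 7.57% (7.41% to 7.74%). Acta1 made up 0.635% (0.587% to 0.687%) and 0.830% (0.792% to 0.870%) in cKO and 1.09% (1.02% to 1.16%) and 1.62% (1.54% to 1.70%) in control. The 2 controls differed in Acta1 by more than these intervals, so the spread between embryos, not depth, limits that comparison. With 2 libraries against 2, an exact two-sided permutation test cannot give a p below 0.333, and none is given for the shares.

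**Figure D4:**
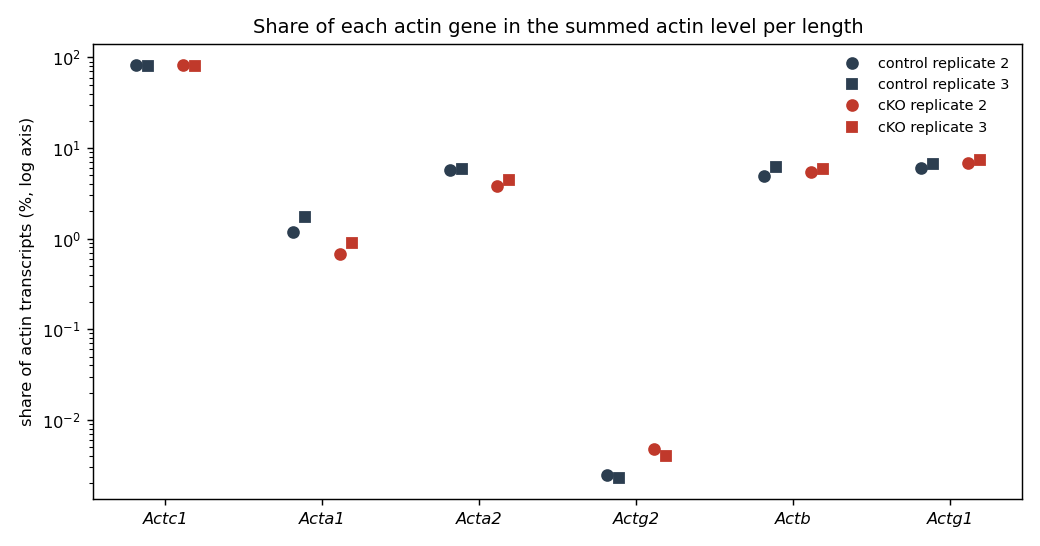
Share of each actin gene in the summed actin level per length, in percent on a log axis, with 1 point per library (circles replicate 2, squares replicate 3, dark control, red cKO). Acta1 and Acta2 lie lower in both cKO libraries, Actc1 and Actb overlap, and Actg2 stays at or below 0.00476%.

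Levels per length also ordered the members. In control, Actc1 had 5829 ± 65.9 CPM per kilobase, Myl9 592 ± 37.3 and Acta2 416 ± 10.1 (SD, n = 2 each), followed by Acta1 (106 ± 30.8), Tagln (100.5 ± 8.03) and Cnn1 (94.6 ± 3.50). The last 3 did not differ beyond their spread in control. In cKO Acta1 stood at 51.6 ± 11.5 CPM per kilobase, below Tagln at 75.3 ± 1.76 and Cnn1 at 81.0 ± 4.13, with no overlap between Acta1 and either of these. Srf (44.7 ± 6.41 in control) and Myocd (24.6 ± 0.747) came next.

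The smooth muscle genes did not keep a fixed ratio to Acta2, which restates that their log2 fold changes were smaller than that of Acta2. Per 100 Acta2 transcripts there were 215 and 201 of Myl9 in cKO and 138 and 146 in control. For Cnn1 the numbers were 32.0 and 28.5 against 23.7 and 21.8. Tagln came nearest to keeping its ratio, at 30.3 and 26.0 against 26.0 and 22.4. Myocd stood at 49.3 and 49.1 transcripts per 100 of Srf in cKO and at 59.9 and 51.0 in control.

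The lists of SRF cofactors and of immediate-early SRF targets had medians near that of all genes. Of 12 SRF cofactors, which include the ternary complex factors, the myocardin-related factors and the LIM proteins, 12 were tested and none passed edgeR's test (0.511% of all genes did), 6 having negative values and the list a median of -0.003. Csrp1, a LIM protein that bridges SRF and GATA factors, had the smallest p, with 229 and 246 CPM in cKO and 293 and 314 in control (log2 fold change -0.36 ± 0.09, adjusted p = 0.249). Of 7 immediate-early SRF targets tested none passed, with a median of -0.001. Fos, a growth-responsive transcription factor, had the smallest p there, with a log2 fold change of 0.39 ± 0.28.

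Other smooth muscle and actin cytoskeleton genes were on the low side in cKO without passing. Of 27 tested none passed edgeR's test, where 0.511% of all genes did. Negative log2 fold changes were found for 25, against 50.1% of all tested genes, and the median was -0.12. Among the marker lists below, 10 of 10 endothelial and endocardial genes were negative and 4 of 9 cushion mesenchyme and fibroblast genes. Synpo2, the actin-bundling protein myopodin, had the smallest p, with 66.7 and 63.6 CPM in cKO and 90.0 and 95.1 in control (log2 fold change -0.51 ± 0.09, adjusted p = 0.0569). Chosen after their values were seen, the actin cross-linkers Actn1 and Actn4 had -0.43 ± 0.12 and -0.25 ± 0.09 and caldesmon (Cald1) -0.23 ± 0.08. Myl6, the light chain that pairs with myosins of smooth muscle and other cells and was likewise chosen afterwards, had 0.19 ± 0.08, and desmin (Des) -0.04 ± 0.08.

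TGF-beta signalling and the cardiac sarcomere were read in the same way, and since 0.511% of all genes were called, a count of 0 in lists of this size says little about either. Of 15 genes of TGF-beta signalling, a known inducer of smooth muscle genes, none passed (median -0.02), and the endothelial coreceptor Eng had the smallest p (-0.32 ± 0.13). None of 20 cardiac sarcomere genes passed (median -0.02), with the Z-disc cross-linker Actn2 having the smallest p (-0.20 ± 0.09).

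Markers of other cells that could carry smooth muscle transcripts were read beside these values, in lists too short to expect a call where 0.511% of all genes were called, 0.365% as lower in cKO. Of 9 pericyte and mural genes 8 were tested and none passed edgeR's test. Their median was -0.08, and the summed level was 740 to 774 CPM in cKO and 751 to 849 CPM in control, while Higd1b was at 0 in all libraries and Rgs5 at 1.06 to 1.66 CPM. Of 10 endothelial and endocardial genes none passed, 10 were negative (median -0.22), and the summed level was 1336 to 1482 CPM in cKO and 1575 to 1662 CPM in control, without overlap. Of 10 epicardial genes 1 fell, the keratin gene Krt19 (25.4 and 17.9 CPM in cKO, 41.4 and 45.4 in control, adjusted p = 0.0347 with edgeR, named after its value was seen), against 0.365% of all genes, with 9 negative (median -0.25) and a summed level of 309 to 411 CPM in cKO and 389 to 440 CPM in control.

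None of 9 cushion mesenchyme and fibroblast genes passed (median 0.22), with a summed level of 1094 to 1398 CPM in cKO and 1044 to 1531 CPM in control. Postn, the gene at that median, stood at 88.2 and 211.5 CPM in cKO replicates 2 and 3 and at 117 and 144 CPM in control. Both cKO libraries lay above both controls for 0 genes of this list (19.4% of all genes) and below them for 1 (18.8%). Erythroid genes, none of 8 past the test (median -0.24), summed to 2427 CPM in cKO replicate 2 and to 4628 to 5788 CPM in the other libraries. Of 4 atrial genes tested none passed (median -0.15), and the list summed to 113 to 149 CPM in cKO and 103 to 125 CPM in control. The part of any of these cells in the Acta1 and Acta2 values was not tested.

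**Figure D5:**
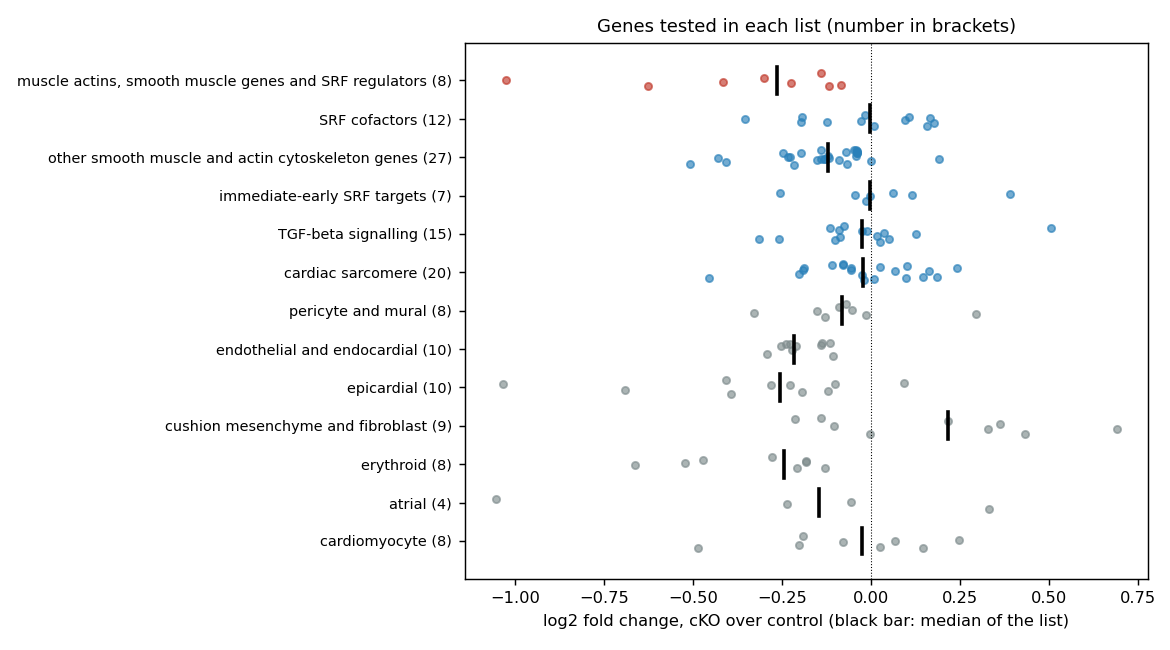
Log2 fold change of cKO over control for every tested gene of each list, 1 point per gene, with the number tested in brackets and a black bar at the list's median. The 8 members (red) have a median of -0.26, the SRF cofactors -0.003 and the other smooth muscle and actin cytoskeleton genes -0.12. Near the members lie the epicardial (-0.25), erythroid (-0.24) and endothelial and endocardial (-0.22) lists, while cushion mesenchyme and fibroblast genes have 0.22. In that last list 0 genes had both cKO libraries above both controls (19.4% of all genes did).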

How the data were processed

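Polyadenylated RNA from the ventricles of 4 embryos was sequenced as single reads of 75 bases from 500 ng of total RNA, per the labels' protocols. The authors deposited 1 table of expected counts (estimated counts, which need not be whole where reads fit several genes). CASAVA 1.8.2, cutadapt 1.3, RSEM 1.2.3 and GRCm38 were used, per the submitters' processing notes, while the annotation was not given in the sources used here. Symbols (36345 of 38293 rows) and lengths came from GENCODE M21.

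Expected counts were rounded, genes kept by edgeR's filter by group (minimum count 10, minimum total 15), scaled by TMM and tested with edgeR 4.0.16 (glmQLFit, glmQLFTest, R 4.3.3) on 2 residual degrees of freedom, with Benjamini-Hochberg adjustment over all 13711 genes and a threshold of 0.05. The edgeR steps were also run on simulated counts whose spread was set and not estimated from these embryos. That run does not measure what could be detected here. The SE is the log2 fold change over the square root of F. Alternatives were DESeq2 1.42.0 (test, and size factors), upper-quartile scaling, other filters, limma-voom (limma 3.58.1), a replicate block, other lengths and denominators for the actin shares, and each library left out. Coding sequences were aligned with Biopython 1.88.

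The members and gene lists were chosen with earlier results of these data known. Besides the members, the cytoplasmic actins and genes that check labels or read sharing, the genes named were, for each pathway list, those past the threshold (up to 4) or else the 1 with the smallest p. Actn1, Actn4, Cald1, Myl6, Des and the marker genes named were chosen outside that rule, after their values were seen.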

Additional observations from a re-analysis of the deposited data

How the results depend on the processing

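Of 88 member values under an alternative, 78 kept their direction and their side of the threshold, 8 passed the threshold where edgeR's main test had not, and 2 turned sign: Myl9 without cKO replicate 2 (0.003) and Srf without control replicate 3 (0.015). With 1 library left out Myl9 ranged from -0.174 to 0.003 and Srf from -0.279 to 0.015. The number of the 8 members called was 0, against 2 with DESeq2, 1 with limma-voom, 2 with the replicate block and 0 to 2 with 1 library left out. Of all genes these settings called 0.511%, 0.700%, 0.532%, 0.547% and 0.275% to 1.0%. The cause was not tested. In the block, which the labels tie to no shared source, Acta1 had -1.02 (adjusted p = 0.00173) and Acta2 -0.63 (adjusted p = 0.0211), and 75 genes were called. Across genes, deviations from the group means had a correlation of 0.106 between libraries that share a number.

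The count over all genes was 70 and ran from 39 to 141 with 1 library left out (24 to 69 lower, 15 to 72 higher in cKO). The 20 genes higher in cKO became 10 with a mean of at least 5 CPM, where fewer genes enter, and 31 with DESeq2. Both cKO libraries lay below both controls for 6 members under each scaling (15.7% to 19.0% of all genes) and for 6 to 8 with 1 library left out, where fewer libraries have to be apart and 31.1% to 37.1% of all genes were. On the log2 scale, cKO over control, the Acta1 share ranged from -1.17 to -0.59 and the Acta2 share from -0.59 to -0.39 with 1 library left out, and Actb from -0.14 to 0.19. Other lengths and denominators moved no share by more than the spread between replicates. Each leave-out assumes that a lone library varies like the other group. With 2 embryos per group, the spread between embryos limits every comparison here, and Actg2 and Myh11 are limited by depth.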
